A study of Mus musculus with 24 samples.

Results

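Transforming growth factor beta (TGF-beta) and epithelial-mesenchymal transition (EMT) were followed here through 9 genes, namely Tgfb1, Tgfb2, Tgfbr1, Smad7, Tgfbi, Fn1, Vim, Cdh2 and Zeb1. They were taken by symbol from the 25239 genes of the normalised count table. Each symbol named 1 gene, and 8 of the 9 passed the filter on low values, a mean of at least 10 normalised counts over all libraries. Zeb1 did not pass and is given by its values only. The libraries are bulk RNA from primary tracheal epithelial cells of wild-type FVB/NJ mice, 7 to 8 weeks old, that had spent 10 to 14 days maturing with their upper side in air. For 10 days the layers then received humidified air or cigarette smoke, with 2 cigarettes burned over about 8 min in 1 exposure. Each sex thus has an air and a smoke group, which makes 4 groups of 6 culture inserts. No donor is named for any insert, so p-values measure the spread between inserts, and the sex of the mice and the preparation of their cells cannot be told apart.

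TGF-beta ligands are secreted bound to a latency peptide and are held in the matrix by latent TGF-beta binding proteins until integrins or proteases release them. The free ligand joins a type II and a type I receptor, which phosphorylate SMAD2 and SMAD3, and these enter the nucleus with SMAD4 and switch target genes. The same signal raises inhibitors such as SMAD7 that damp it. In airway epithelium the pathway is known for slowing basal cell growth, for repair, and for EMT, in which cells lose E-cadherin and gain N-cadherin, vimentin and fibronectin under transcription factors such as ZEB1.

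The cultures carried the labelled identity. All 9 airway epithelial markers were present in every group, with Krt5 of basal cells at 38677 to 209524 normalised counts, and E-cadherin (Cdh1) stood at 15436 to 23134 over all 24 libraries. Marker levels differed between groups, in log2 fold changes called as below. In female smoke Bpifa1 (-3.70), Scgb1a1 (-3.09) and Foxj1 (-2.51) fell and 1 marker rose, where 34.8% of all genes were called. In male smoke Krt14 (0.72), Krt5 (0.65) and Tubb4b (0.31) rose and 0 fell, where 22.0% were called. In air 3 were higher and 2 lower in female cells, led by Scgb1a1 (-2.75) and Krt14 (1.70), where 39.0% were called. Their part in the member differences was not tested. Depth was 16038813 to 24485024 reads in genes per library. Female air insert 1 and female smoke insert 4 stood apart. In them the deviation from the group median followed transcript length (Spearman rho over genes -0.66 and -0.43, against -0.14 to 0.33 in the other 22 libraries), with 4967 and 3000 genes more than 2-fold off the group median, against at most 1164 elsewhere. Inserts 4 to 6 also differed from inserts 1 to 3, and the labels do not say what these numbers stand for. In female air 34.9% of the 13549 genes tested did not overlap between the 2 sets of 3 inserts, in female smoke 16.3%, in male air 33.5% and in male smoke 33.2%. Results below are therefore given also without those 2 libraries and within each set of inserts where this matters.

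The promoters of the 4 members that differed between female and male cells in air are shown because they moved apart in the same libraries. Each line is the 250 bases before the RefSeq start site on GRCm38.p6, the assembly that mm10 also stands for. Capitals mark CAGAC or its reverse complement GTCTG, the SMAD box, and TATAAA, the TATA box, on either strand. The E-box that ZEB and SNAIL factors bind, CAGGTG or CACCTG, was searched too.
Tgfb1, chr7:25686752-25687001, + strand: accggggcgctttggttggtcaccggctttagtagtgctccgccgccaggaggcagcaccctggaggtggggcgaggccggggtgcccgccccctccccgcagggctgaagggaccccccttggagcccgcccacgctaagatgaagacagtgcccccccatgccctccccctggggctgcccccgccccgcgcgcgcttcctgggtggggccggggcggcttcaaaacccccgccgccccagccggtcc
Tgfb2, chr1:186705990-186706239, - strand: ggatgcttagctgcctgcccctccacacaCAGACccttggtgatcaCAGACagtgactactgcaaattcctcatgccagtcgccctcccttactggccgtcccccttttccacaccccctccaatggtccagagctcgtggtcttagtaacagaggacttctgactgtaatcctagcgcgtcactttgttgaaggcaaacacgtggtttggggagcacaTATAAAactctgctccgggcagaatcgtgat
Tgfbi, chr13:56609336-56609585, + strand: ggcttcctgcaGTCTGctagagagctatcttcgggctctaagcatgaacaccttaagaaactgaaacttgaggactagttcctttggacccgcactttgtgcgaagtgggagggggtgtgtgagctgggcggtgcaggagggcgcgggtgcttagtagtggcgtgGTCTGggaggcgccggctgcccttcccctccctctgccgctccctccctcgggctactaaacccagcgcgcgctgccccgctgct
Vim, chr2:13574061-13574310, + strand: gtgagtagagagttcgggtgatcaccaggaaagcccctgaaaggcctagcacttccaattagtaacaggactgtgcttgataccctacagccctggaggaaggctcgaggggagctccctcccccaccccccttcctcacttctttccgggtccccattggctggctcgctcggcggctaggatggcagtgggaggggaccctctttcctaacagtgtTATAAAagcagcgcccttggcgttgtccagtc
The Tgfb2 window held the SMAD box at -221 to -217 and at -204 to -200 from the start site, and a TATA box at -31 to -26. In the Tgfbi window the SMAD box lay on the reverse strand at -239 to -235 and at -85 to -81. The Vim window held a TATA box at -32 to -27, and these letters are not in the Tgfb1 window. Of 32851 RefSeq windows of this length, 42.2% held a SMAD box, 17.2% the E-box and 12.4% a TATA box, so such matches are common. RefSeq promoters matched 5 of the 9 members, with 6 windows, and were not matched for Smad7, Fn1, Cdh2 and Zeb1.

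In female cells Cdh2, Vim, Tgfbi and Tgfbr1 fell in smoke, 4 of the 8 tested genes, and no member rose past the threshold. Across all genes 34.8% were called in this comparison, 15.5% higher and 19.3% lower, at a Benjamini-Hochberg adjusted p under 0.05 in limma. The median log2 fold change of the 8 genes was -0.75, against -0.0026 over all genes tested. Without female air insert 1 and female smoke insert 4, 5 members fell, Fn1 being the fifth, where 45.8% of all genes were called. With only the female libraries in the fit Cdh2 alone passed, where 21.2% of all genes were called. In inserts 1 to 3 alone 0 members did, where 4.82% of all genes were called. In male cells Cdh2 alone passed the threshold, again lower in smoke, which is 1 of 8 where 22.0% of all genes were called (9.76% higher and 12.2% lower). The median over the 8 genes in male cells was 0.34, against -0.0058 over all genes.

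Between the sexes in air, 4 of the 8 genes differed, where 39.0% of all genes did. Tgfbi, Vim and Tgfb1 were higher in female cells and Tgfb2 was higher in male cells. Across all genes 20.0% were called higher and 19.0% lower in female cells. Without the 2 libraries that stood apart, Fn1 was called too (1.56, adjusted p = 0.0179), which makes 5 of 8 where 55.8% of all genes were called. This comparison and the smoke comparison in female cells share the 6 female air libraries, so their values are set side by side and are not independent. In bulk RNA, fewer cells of a type and less RNA per cell cannot be told apart in any of these comparisons.

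**Figure D1:**
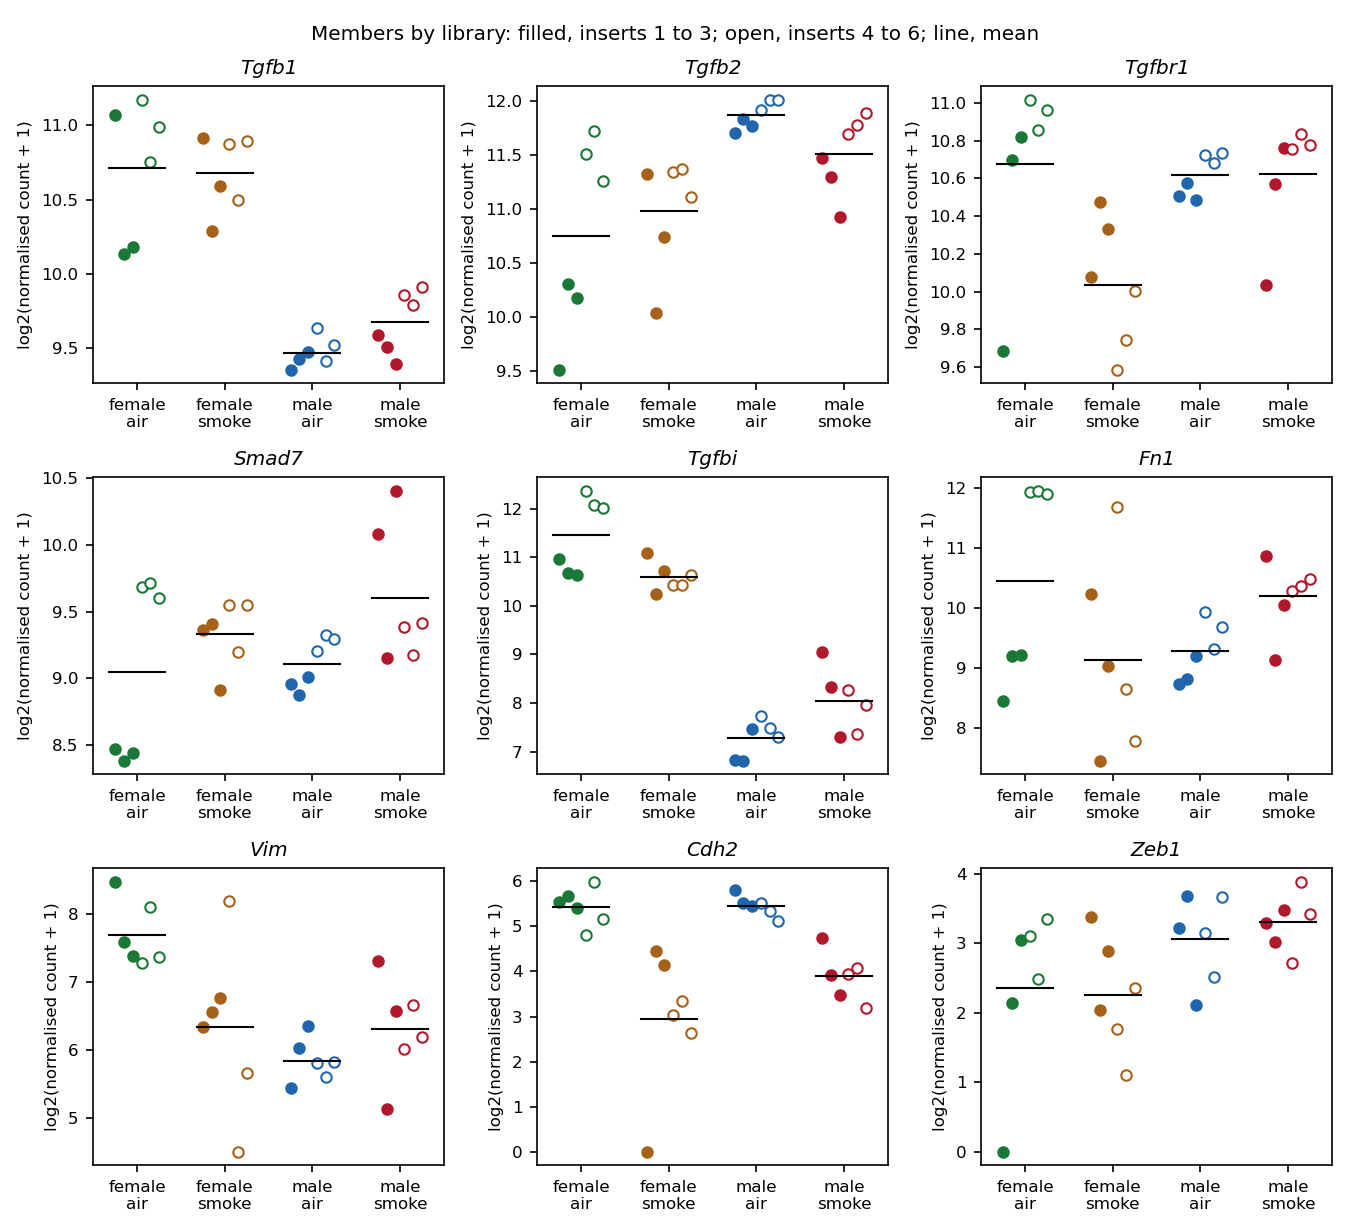
Each panel plots 1 member in the 24 libraries as log2 of the normalised count plus 1, by group, with filled circles for inserts 1 to 3, open circles for inserts 4 to 6 and a line at the group mean. Tgfbi in female cells sits above all male libraries, Cdh2 in both smoke groups sits below all air libraries of its sex, and Fn1 in female air splits into 348 to 598 and 3832 to 3992 normalised counts.

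Tgfb1 encodes the TGF-beta1 ligand. Its normalised count was 1121 to 2311 in female air (median 1878), 1251 to 1928 in female smoke (1707), 655 to 794 in male air (698) and 671 to 963 in male smoke (827). All female libraries, air and smoke, were above the highest male library. In air the female level was 2.37-fold higher (log2 fold change 1.24 ± 0.16, SE, n = 6 per group, adjusted p = 1.60e-06). Groups that do not overlap were also found for 33.2% of all genes in this comparison. The smoke difference was -0.039 ± 0.16 in female cells (adjusted p = 0.879) and 0.20 ± 0.16 in male cells (adjusted p = 0.388), neither past the threshold.

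Tgfb2, the TGF-beta2 ligand, had the opposite order between the sexes. It stood at 730 to 3369 in female air (median 1856), 1047 to 2648 in female smoke (2380), 3328 to 4131 in male air (3758) and 1944 to 3788 in male smoke (3083). Female air was 2.18-fold below male air (-1.13 ± 0.30, adjusted p = 0.00418), with an overlap of 1 library at each edge. Most of the low female values came from inserts 1 to 3, at 730 to 1261, while inserts 4 to 6 lay at 2452 to 3369. The call held in each set of 3 inserts alone. The smoke differences of 0.24 ± 0.30 in female cells (adjusted p = 0.577) and -0.36 ± 0.30 in male cells (adjusted p = 0.407) were within the spread between inserts.

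The balance of the ligands was therefore set against each other within a library, per kilobase of exon. Tgfb1 exceeded Tgfb2 in all 12 female libraries, with a ratio of 1.22 to 7.03 in air (median 2.05) and 1.31 to 2.86 in smoke (1.93). In male air the ratio was 0.397 to 0.491 (0.460), and in male smoke 0.602 to 0.826 (0.656). Female and male libraries did not overlap, nor did male air and male smoke. The ratio was chosen after these values were seen and is a description with no test. The highest value, 7.03, came from female air insert 1, where counts follow transcript length.

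Tgfbr1 encodes the type I receptor that passes the signal to SMAD2 and SMAD3. Its normalised count was 822 to 2071 in female air (median 1830), 768 to 1423 in female smoke (1053), 1432 to 1705 in male air (1584) and 1047 to 1828 in male smoke (1730). It fell 1.55-fold in smoke in female cells (-0.64 ± 0.19, adjusted p = 0.0118). The groups overlap through female air insert 1, since the other female air libraries, at 1661 to 2071, are above all of female smoke, and without that library and female smoke insert 4 the difference was -0.74 (adjusted p = 0.000263). Male cells showed 0.0043 ± 0.19 (adjusted p = 0.991). The female difference was -1.17 in inserts 4 to 6 alone and -0.10 in inserts 1 to 3 alone, the set that holds female air insert 1. In that set air inserts 2 and 3 held 1661 and 1805, both above the smoke inserts at 1079 to 1423.

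Smad7, the inhibitory SMAD that TGF-beta induces, passed the threshold in no comparison of the fit over all groups. It stood at 334 to 838 in female air (median 564), 480 to 750 in female smoke (668), 468 to 642 in male air (551) and 567 to 1355 in male smoke (673). Female air splits by insert, with 334 to 354 in inserts 1 to 3 and 774 to 838 in inserts 4 to 6, and all of female smoke lies between these 2 sets. The smoke differences were 0.28 ± 0.25 in female cells (adjusted p = 0.415) and 0.49 ± 0.25 in male cells (adjusted p = 0.165). Male smoke inserts 1 and 3, at 1079 and 1355, were the highest of all libraries. Within inserts 1 to 3 alone the male difference was 0.93 (adjusted p = 0.0354), and in the authors' deposited table it is 0.54 (adjusted p = 0.0209).

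Tgfbi encodes a secreted matrix adhesion protein named for its induction by TGF-beta. It ran from 1585 to 5329 in female air (median 3097), 1219 to 2192 in female smoke (1493), 112 to 210 in male air (167) and 156 to 532 in male smoke (277). The lowest female library was above the highest male library. In air the female level was 18.3-fold the male level (4.19 ± 0.31, adjusted p = 2.44e-10), and the difference was called in each set of inserts alone. In female smoke it fell 1.82-fold (-0.87 ± 0.31, adjusted p = 0.0323). The difference was -1.66 in inserts 4 to 6 alone and -0.075 in inserts 1 to 3 alone (adjusted p = 0.904). In male cells smoke gave 0.77 ± 0.31 (adjusted p = 0.0752), which passed the threshold without the 2 libraries that follow transcript length (adjusted p = 0.0470), a fit in which 47.4% of all genes were called. The authors' deposited tables call Tgfbi lower in female smoke (-0.94) and higher in male smoke (0.79). Itgam, an integrin of myeloid cells in the leukocyte marker list, was also higher in female air (5.28 ± 0.43, adjusted p = 1.36e-09). The 7 leukocyte markers other than Lyz2, a gene that airway epithelium also makes, summed to 502 to 1796 in female air and 110 to 248 in male air, while Ptprc, which defines leukocytes, averaged 2.18 and 2.57 and Adgre1 was at 0 in both. The same sum was 1140 to 4011 in female smoke and 416 to 829 in male smoke. Itgam (2.61 ± 0.43, adjusted p = 0.000193) and Cd68, a macrophage marker (1.53 ± 0.24, adjusted p = 0.000106), rose in male smoke. In female smoke Cd68 rose (0.77 ± 0.24, adjusted p = 0.0159) while Tgfbi fell. Of the 4 leukocyte markers tested there, 1 rose and 2 fell, where 34.8% of all genes were called. Lyz2 was among those that fell (-1.83 ± 0.49, adjusted p = 0.00575). With Lyz2 included the marker sum had a median of 60954 in female air and 24030 in female smoke, and 33676 and 27714 in male air and smoke. The part of such cells in the Tgfbi differences was not tested.

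Fn1 encodes fibronectin, a matrix protein that mesenchymal cells lay down. Its values in female air fell into 2 sets, 348 to 598 in inserts 1 to 3 and 3832 to 3992 in inserts 4 to 6, with a ratio of 7.65 between the set means. Female smoke ran from 175 to 3283 (median 464), male air from 424 to 983 (614) and male smoke from 561 to 1880 (1279). No difference in Fn1 passed the threshold with all libraries, at -1.30 ± 0.65 for smoke in female cells (adjusted p = 0.125), 0.91 ± 0.65 for smoke in male cells (adjusted p = 0.336) and 1.16 ± 0.65 between the sexes in air (adjusted p = 0.161). Female smoke insert 4 was the highest smoke library at 3283 and the next highest held 1209, both between the 2 sets of female air values. Without female smoke insert 4 the female difference was -1.81 (adjusted p = 0.0231). Without female air insert 1 it was -1.70 (adjusted p = 0.0332), and without both libraries it was -2.21 (adjusted p = 0.00370). Within inserts 4 to 6 it was -2.56 and within inserts 1 to 3 it was -0.046. The air difference between the sexes passed in inserts 4 to 6 alone (2.28, adjusted p = 0.0327) and by edgeR (1.78, adjusted p = 0.0360). The authors' deposited tables call Fn1 higher in male smoke (0.86) and in female air against male air (1.55).

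Vim encodes vimentin, the intermediate filament of mesenchymal cells. It was low in all groups, with 155 to 356 in female air (median 178), 21.7 to 292 in female smoke (86.4), 42.5 to 80.6 in male air (55.3) and 34.1 to 158 in male smoke (83.1). In air all female libraries exceeded all male ones, 3.62-fold on average (1.86 ± 0.42, adjusted p = 0.00126), and in inserts 4 to 6 alone the difference was 1.84 (adjusted p = 0.0661). Smoke lowered it 2.57-fold in female cells (-1.36 ± 0.42, adjusted p = 0.0155). Female smoke insert 4, at 292, was the single smoke library inside the air range, and the other 5 held 21.7 to 108. Male cells showed 0.47 ± 0.42 (adjusted p = 0.459). In the authors' deposited table the female smoke difference is -0.88 (adjusted p = 0.11), and edgeR on recovered reads gave -1.04 (adjusted p = 0.0661).

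Cdh2 encodes N-cadherin, the cadherin that replaces E-cadherin in EMT. It was scarce, with 27.2 to 63.0 normalised counts in female air (median 43.7), 0 to 20.9 in female smoke (8.16), 33.6 to 54.9 in male air (44.0) and 8.10 to 25.6 in male smoke (14.3). In reads this is 25 to 68 per library in female air and 0 to 21 in female smoke, so counting error is a large part of each value. In both sexes every smoke library was below every air library. Smoke and air groups that do not overlap, in either direction, were found for 12.5% of all genes in female cells and 25.2% in male cells. The fall was 5.66-fold in female cells (-2.50 ± 0.48, adjusted p = 0.000578) and 2.97-fold in male cells (-1.57 ± 0.48, adjusted p = 0.0229), and the authors' deposited tables call both (-1.85 and -1.41). Female smoke insert 1 held 0 reads, and without it the female difference was -1.91. Pseudocounts of 0.5 and 5 gave -2.71 and -1.86. Within inserts 1 to 3 alone it was -2.68 in female cells (adjusted p = 0.106) and -1.55 in male cells (adjusted p = 0.270), neither past the threshold. The air groups differed by -0.026 ± 0.48 (adjusted p = 0.973). Leaving out male smoke insert 3 gave -1.49 in male cells (adjusted p = 0.0511), and quantile scaling gave -1.35 (adjusted p = 0.0530). Per 1000 units of Cdh1 per kilobase, Cdh2 stood at 1.08 to 2.71 in female air, 0 to 1.03 in female smoke, 1.42 to 2.59 in male air and 0.372 to 1.03 in male smoke. Cdh1 itself differed by -0.13 ± 0.10 in female cells (adjusted p = 0.349) and -0.084 ± 0.10 in male cells (adjusted p = 0.612), neither past the threshold.

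Fibroblast markers moved with Cdh2. The 10 markers summed to 303 to 1572 normalised counts in female air, 25.1 to 176 in female smoke, 227 to 500 in male air and 42.5 to 144 in male smoke, with no overlap between air and smoke in either sex. Of the 10, 3 passed the filter and all 3 fell in both sexes, where 19.3% of all genes fell in female and 12.2% in male smoke. Markers averaging at least 10 numbered 6 in female air, 5 in male air and 2 in each smoke group. A marker can pass the filter through its air level, so the falls may be set in part by the filter. The count is therefore no measure of enrichment over all genes. The differences in female and male cells were -4.52 and -4.37 for Dcn, -2.63 and -1.46 for Postn and -2.08 and -1.53 for Col6a1. Lum was at 0 in every smoke library, and Col1a1 and Col3a1 averaged 3.56 and 0.348 in female smoke. The part of fibroblasts in the differences of Cdh2, Vim and Fn1 was not tested. Smooth muscle markers summed to at most 62.1 and endothelial markers to at most 53.7 in any library, with Cdh5 at 0 in female air, female smoke and male air.

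**Figure D2:**
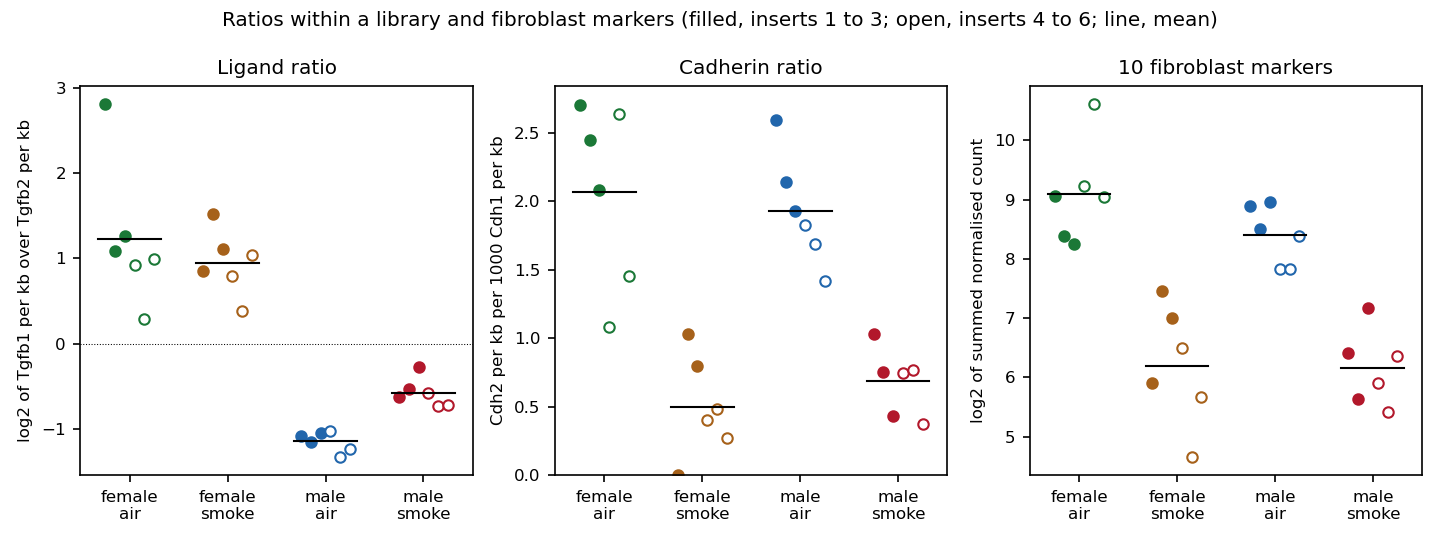
The left panel plots log2 of Tgfb1 over Tgfb2 per kilobase, the middle panel Cdh2 per 1000 Cdh1, both per kilobase, and the right panel log2 of the summed normalised count of 10 fibroblast markers, each point being 1 library (filled, inserts 1 to 3; open, inserts 4 to 6) and the line the mean. Female libraries sit above 0 and male libraries below 0 on the left, and in the other panels smoke libraries sit below the air libraries of the same sex.

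Zeb1, the transcription factor that represses E-cadherin, was at the edge of detection. It reached 0 to 9.17 normalised counts in female air, 1.14 to 9.41 in female smoke, 3.31 to 11.8 in male air and 5.55 to 13.8 in male smoke, from 0 to 16 reads per library. All groups overlap, and a difference was not detectable at this depth.

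Ranked per kilobase of exon, the order of levels differed between the sexes in air. In female air Tgfbi led with 1161 ± 592 normalised counts per kilobase (SD, n = 6), followed by Tgfb1 (804 ± 234), Tgfb2 (381 ± 207), Tgfbr1 (283 ± 75.5), Fn1 (263 ± 222), Smad7 (130 ± 57.7), Vim (119 ± 44.0), Cdh2 (9.03 ± 2.56) and Zeb1 (0.88 ± 0.55). The ranges of neighbours overlap down to Vim, and Vim, Cdh2 and Zeb1 are apart from each other. In male air the order was Tgfb2 (724 ± 63.5), Tgfb1 (326 ± 22.5), Tgfbr1 (261 ± 19.9), Smad7 (125 ± 16.5), Fn1 (77.4 ± 25.8), Tgfbi (57.6 ± 14.4), Vim (31.4 ± 7.40), Cdh2 (8.98 ± 1.46) and Zeb1 (1.31 ± 0.57). There only Smad7 with Fn1, Fn1 with Tgfbi and Tgfbi with Vim overlap among neighbours. Tgfbi thus stood first in female air and sixth in male air, and in smoke Tgfb1 led in female cells (762 ± 131) and Tgfb2 in male cells (575 ± 132).

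**Figure D3:**
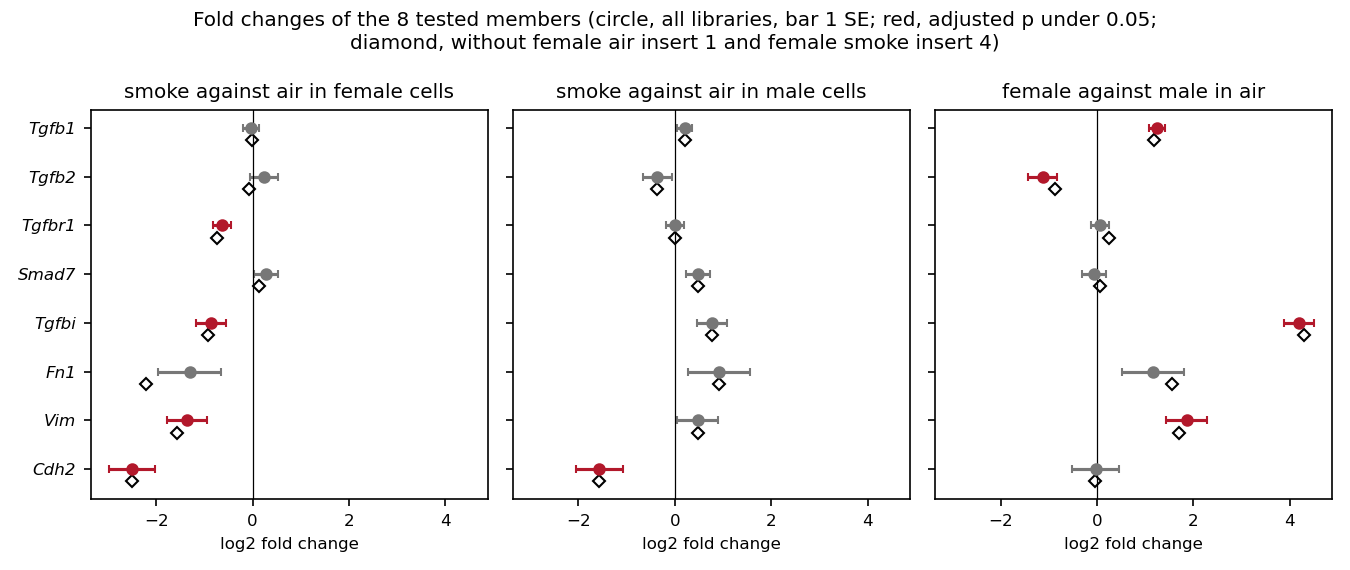
Log2 fold changes of the 8 tested members, with circles for all libraries (bar, 1 SE; red where the adjusted p is under 0.05) and diamonds for the fit without female air insert 1 and female smoke insert 4. Fn1 in female smoke moves from -1.30 to -2.21 between the 2 fits.

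The difference between the smoke responses of the sexes was tested as an interaction, the female response minus the male response. By limma 0 of the 8 members passed, where 1.03% of all genes did. By edgeR 1 member, Tgfbi, was called, where 1.16% of all genes were. In limma 4 members had an unadjusted p under 0.05. The share of all genes at that threshold was not taken, so this count has no background. The estimates were -2.22 ± 0.92 for Fn1 (adjusted p = 0.284), -1.83 ± 0.60 for Vim (adjusted p = 0.153), -1.64 ± 0.44 for Tgfbi (adjusted p = 0.0689) and -0.64 ± 0.27 for Tgfbr1 (adjusted p = 0.288). Without the 2 libraries that follow transcript length these same 4 genes passed, at -3.13, -2.05, -1.70 and -0.75, where 6.23% of all genes did. Single libraries also decided calls: Tgfbi passed without female air insert 1, 2 or 3 or male smoke insert 5 (-1.73, -1.79, -1.80 and -1.77), Tgfbr1 without female air insert 1 (-0.84) and Vim without female smoke insert 4 (-2.21). For Cdh2 the interaction was -0.93 ± 0.69 (adjusted p = 0.637).

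In the smoke comparisons, some calls of the members rested on single libraries or on the spread shared by all groups. With 1 library left out, the female calls of Cdh2, Tgfbr1 and Vim held in every case (highest adjusted p = 0.00182, 0.0318 and 0.0462). The male Cdh2 call was lost in 1 of 12 cases. The Tgfbi call in female cells was lost when female air insert 4, 5 or 6 or female smoke insert 2, 4 or 5 was left out (adjusted p = 0.0893, 0.0786, 0.0773, 0.0630, 0.0552 and 0.0591). With only the 12 female libraries in the fit, Tgfbr1, Tgfbi and Vim had adjusted p = 0.0642, 0.0638 and 0.0644 and only Cdh2 passed. In that fit 21.2% of all genes were called. Tgfbi in male cells passed without male smoke insert 3 or 5 (0.92 and 0.91). With only the 12 male libraries, Tgfb2 (-0.36), Tgfbi (0.77), Fn1 (0.91) and Cdh2 passed, where 46.1% of all genes were called.

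The rest of the pathway was read from 112 further genes in 10 lists by role, of which 101 passed the filter. In female smoke 15 rose and 21 fell, with a median of -0.063. In male smoke 16 rose and 11 fell, with a median of 0.060. Of these calls 15 were shared in direction by both sexes, 41.7% of the female and 55.6% of the male calls, against 39.7% and 62.9% for all genes tested. Between the sexes in air 27 were higher and 18 lower in female cells, with a median of 0.16 against 0.019 over all genes. Of the 101 genes, the rises in male smoke and the genes higher in female air exceed the share of all genes, and the other counts are close to it. The excess was not tested. The list counts that follow stand against the same background. It is 15.5% higher and 19.3% lower in female smoke, 9.76% and 12.2% in male smoke, and 20.0% and 19.0% in female against male air.

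Among the other ligands, Tgfb3 (-1.38 ± 0.38, adjusted p = 0.00702) and Inhbb, an activin subunit (-0.63 ± 0.19, adjusted p = 0.0152), fell in female smoke, 2 of 5 tested, where 19.3% of all genes fell. Tgfb3 in female air split by insert. In inserts 1 to 3 it held 146 to 154 normalised counts in air and 102 to 127 in smoke. In inserts 4 to 6 it held 653 to 764 in air and 99.3 to 217 in smoke. Air and smoke did not overlap in either set, and the fall was larger in inserts 4 to 6. In male cells Tgfb3 stood at -0.76 ± 0.38 (adjusted p = 0.156). Inhba, the other activin subunit, was higher in female air by 3.05 ± 0.58 (adjusted p = 0.000202). It stood there at 86.7 to 1462 normalised counts, against 33.9 to 83.2 in male air. Its female air values also split, with 86.7 to 169 in inserts 1 to 3 and 985 to 1462 in inserts 4 to 6.

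Of 11 genes that store or release latent TGF-beta, 4 fell in female smoke and 0 rose, where 34.8% of all genes were called, and the list median was -0.65. Without the 2 libraries that stood apart 7 fell, where 45.8% of all genes were called. Ltbp4, a latent TGF-beta binding protein, went from 2897 to 10599 in air to 1485 to 3020.5 in smoke (-1.35 ± 0.23, adjusted p = 0.000194), and it fell in male cells too, from 2882 to 3479 to 1064 to 1776 (-1.09 ± 0.23, adjusted p = 0.00167). Fbn1, the fibrillin to which these proteins attach, fell by 2.47 ± 0.67 in female cells (adjusted p = 0.00680) and Itgb8, part of an integrin that frees the ligand, by 1.70 ± 0.59 (adjusted p = 0.0277), both on the log2 scale. Fbn1 stood at 7.61 to 487 normalised counts in female air, 6.85 to 34.8 in female smoke and 6.75 to 10.4 in male air. It thus passed the filter mainly through female air, the group from which it fell, so a fall was the likelier call. The fibroblast marker sums given above fell with Fbn1, and their part was not tested. Male smoke gave 2 rises and 1 fall among these 11 genes. Thbs1, a matrix protein that can activate latent TGF-beta, rose by 1.55 ± 0.45 (adjusted p = 0.0153), from 2353 to 3666 in male air to 5925 to 15076 in male smoke, and Itgb6, of another activating integrin, rose by 0.87 ± 0.27 (adjusted p = 0.0236). In air 5 of the 11 were higher in female cells, where 20.0% of all genes were, and the list median was 1.01. The largest difference was that of Lrrc32, which holds latent TGF-beta at the cell surface (4.05 ± 0.43, adjusted p = 9.94e-08). Lrrc32 ran from 161 to 803 normalised counts in female air and from 21.4 to 30.0 in male air.

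Of 8 other receptors, 4 fell in female smoke, where 19.3% of all genes did, among them Tgfbr3, the co-receptor betaglycan (-1.09 ± 0.33, adjusted p = 0.0131), Acvrl1, a type I receptor best known from endothelium (-1.05 ± 0.20, adjusted p = 0.000420), and Tgfbr2, the type II receptor (-0.39 ± 0.13, adjusted p = 0.0235). In male smoke, where 12.2% of all genes fell, Acvrl1 was the 1 of 8 that did (-1.30 ± 0.20, adjusted p = 7.28e-05), while Tgfbr2 stood at 0.18 ± 0.13 (adjusted p = 0.341). Without the 2 libraries that stood apart 3 fell in female and 5 in male smoke, where 45.8% and 47.4% of all genes were called. In air Tgfbr3 (-1.58 ± 0.33, adjusted p = 0.000557), Tgfbr2 (-0.35 ± 0.13, adjusted p = 0.0358) and Acvr2a (-0.66 ± 0.19, adjusted p = 0.00811) were lower in female cells.

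Of the SMAD proteins, Smad2 did not pass in any of these comparisons (0.11 and 0.18 for smoke in female and male cells, -0.10 between the sexes in air). Smad3, the SMAD that binds the SMAD box, was lower in female air by 1.21 ± 0.18 on the log2 scale (adjusted p = 7.52e-06) and stood at 0.36 and 0.25 in the smoke comparisons, neither called. Smad4, the shared partner, rose in female smoke (0.26 ± 0.10, adjusted p = 0.0462) and Smad5 of the BMP branch fell there (-0.39 ± 0.073, adjusted p = 0.000491). Smad6, the inhibitor of the BMP branch, fell in male smoke (-0.75 ± 0.18, adjusted p = 0.00551).

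Among 12 feedback genes, Pmepa1 is a TGF-beta induced inhibitor of the pathway. It stood at 2211 to 9423 in female air, 2005 to 3072 in female smoke, 1020 to 1379 in male air and 1271 to 2831 in male smoke. It was higher in female than in male air by 1.94 ± 0.30 (adjusted p = 1.60e-05), fell in female smoke (-0.87 ± 0.30, adjusted p = 0.0259), and its male response was 0.60 ± 0.30 (adjusted p = 0.153). In inserts 1 to 3 female air, at 2211 to 3090, overlapped female smoke, at 2506 to 2584. In inserts 4 to 6 air stood at 7589 to 9423 and smoke at 2005 to 3072. Skil, another induced inhibitor, passed in none of these 3 (0.017, 0.27 and 0.32). Bambi, a decoy receptor, was higher in female air (1.31 ± 0.25, adjusted p = 0.000227).

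Target genes did not move together. Ccn2, a matricellular protein often used as a TGF-beta readout, passed in neither sex (-0.43 in female and -0.11 in male smoke). Of 14 targets, 2 rose and 1 fell in each sex. In female smoke Ankrd1 (2.31) and Cdkn2b (0.52) rose and Itgb5 (-0.81) fell. In male smoke Bhlhe40 (0.84) was among those that rose, and Itgb5 (-0.43) fell. In air 5 were higher and 4 lower in female cells, where 20.0% of all genes were higher and 19.0% lower. Acta2, the smooth muscle actin (2.28 ± 0.63, adjusted p = 0.00596), was at one end and Col4a1 and Col4a2 of basement membrane collagen (-1.67 and -1.62) at the other.

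Of 13 tested genes of the BMP branch, the other arm of the superfamily, 6 were called in each sex, and 5 were called in the same direction in both. Over all genes tested, 39.7% of the female and 62.9% of the male calls were shared in direction. Id2, an inhibitor of differentiation factors, rose from 523 to 1710 to 2304 to 3845 in female cells (1.32 ± 0.27, adjusted p = 0.000837) and by 1.47 ± 0.27 in male cells (adjusted p = 0.000470). Bmp2 rose (1.23 and 0.77 in female and male cells), and Bmp4 (-1.30 and -1.42), its receptor Bmpr1b (-1.02 and -1.64) and Id4 (-0.83 and -1.59) fell. Fst, a secreted activin and BMP antagonist, rose in male smoke (1.97 ± 0.54, adjusted p = 0.0115). Bmp4 was also the largest air difference of this list, 2.85 ± 0.37 lower in female cells on the log2 scale (adjusted p = 1.87e-06), at 49.0 to 89.6 against 460 to 591 normalised counts.

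The EMT transcription factors were mostly scarce, and 6 of 10 passed the filter. Snai1 and Zeb2 were below it, at 0 to 15.7 and 0 to 7.41 normalised counts. Snai2, abundant at 433 to 833, passed in neither sex (0.32 ± 0.14, adjusted p = 0.0684, and 0.13 ± 0.14, adjusted p = 0.519). Snai3 rose in male smoke from 0.79 to 9.66 to 18.8 to 264 (3.35 ± 0.66, adjusted p = 0.000910). Its male air values all lay under 10, so it passed the filter only through other groups and a rise was the likelier call. In female smoke 2 rose, Snai3 (2.52 ± 0.66, adjusted p = 0.00518) and Twist2 (2.35 ± 0.47, adjusted p = 0.000745), both named after their values were seen and both below 80 normalised counts. Sox9 was higher in female air (1.09 ± 0.18, adjusted p = 5.13e-05).

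Other mesenchymal markers split. Sparc (-1.83 ± 0.37, adjusted p = 0.000833) and Tnc, tenascin C (-1.40 ± 0.28, adjusted p = 0.000807), both matrix proteins, fell in female smoke, and Tnc fell in male smoke (-0.92 ± 0.28, adjusted p = 0.0226). Cd44, the hyaluronan receptor that basal cells also carry, rose in both (0.85 and 0.55). S100a4 rose in male smoke (1.50 ± 0.42, adjusted p = 0.0127) and was 3.49 ± 0.42 higher in female air (adjusted p = 5.61e-07), together with Cald1 (1.78) and Mmp2 (1.64). The leukocyte marker sums without Lyz2 given above were also higher in female air and in male smoke, and their part was not tested. The fibroblast marker sums given above moved with Sparc and Tnc in smoke, and their part was not tested.

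Of 17 epithelial state genes, 6 rose and 1 fell in female smoke (median 0.19), where 34.8% of all genes were called. In male smoke 4 rose and 1 fell (median 0.33), where 22.0% of all genes were called, and without the 2 libraries that stood apart 9 rose and 2 fell there, where 47.4% were called. Grhl3, a transcription factor of epithelial barrier formation, rose by 1.33 ± 0.23 in female cells (adjusted p = 0.000220) and 1.28 ± 0.23 in male cells (adjusted p = 0.000401), and Ovol1 (1.01 and 0.53), Elf3 (0.95 and 0.72) and the claudin Cldn4 (0.54 and 0.90) rose in both. In air Grhl3 was 2.77 ± 0.23 higher in female cells (adjusted p = 1.67e-09), with Ovol2 (1.46) and Epcam (1.21). Grhl1, a related factor, was the 1 pathway gene of the 101 with a called interaction (0.87 ± 0.14, adjusted p = 0.00298). It rose in female smoke, from 1444 to 1684 to 1815 to 2446, and fell in male smoke, from 1050 to 1199 to 599 to 959, with no overlap in either sex.

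**Figure D4:**
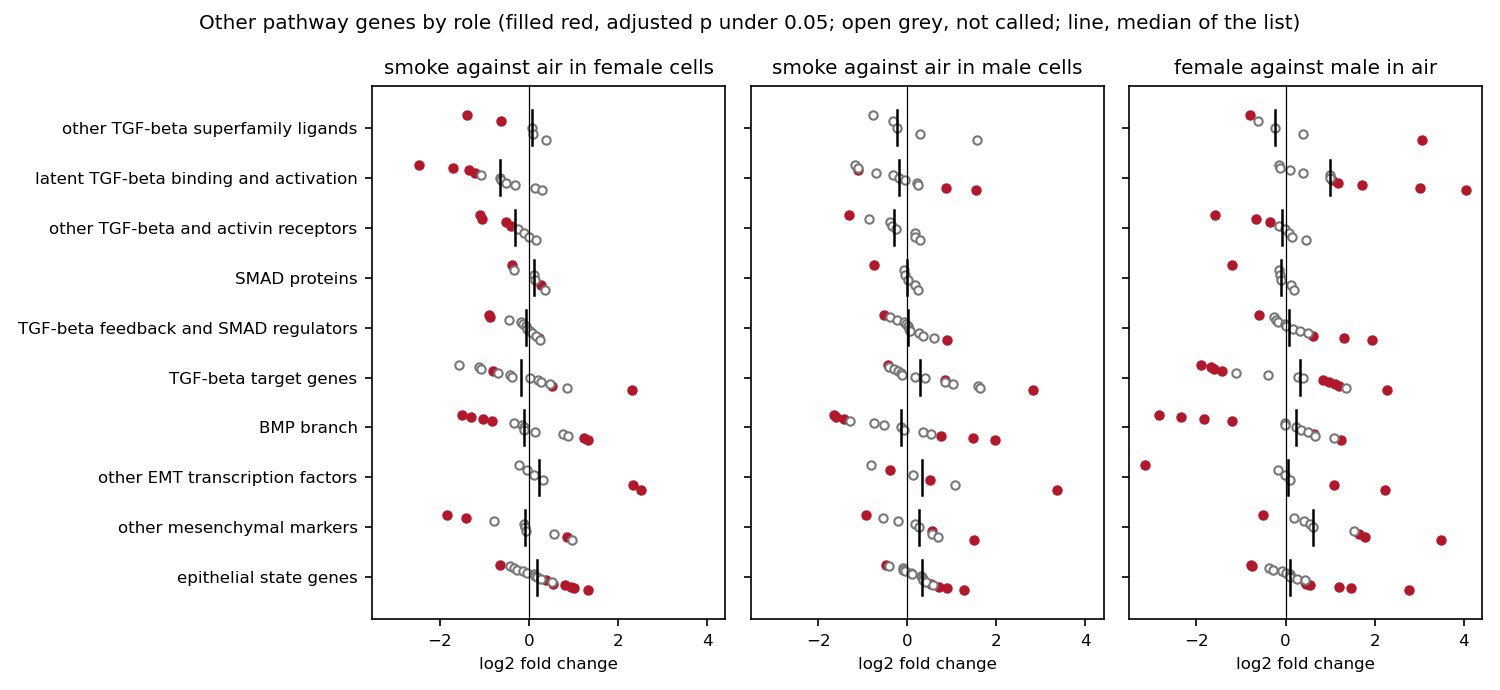
Each row is 1 of the 10 pathway lists and each point 1 gene that passed the filter, placed by its log2 fold change in the comparison named above the panel (filled red, adjusted p under 0.05; open grey, not called; black line, median of the list). The median of the latent TGF-beta list is -0.65 in female smoke and 1.01 between the sexes in air.

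By Pearson correlation of log2 values over the 24 libraries, the 2 genes most like each called member were found. These values share depth, group and insert differences, carry no test and are descriptive. They were Igsf8 (0.967) and Prss12 (0.964) for Tgfb1, Mcam (0.917) and Adgrg6 (0.916) for Tgfb2, and Cemip2 (0.876) and Zkscan1 (0.855) for Tgfbr1. For Tgfbi they were Anxa8 (0.968) and Cpe (0.967), for Vim Myl9 (0.848) and Capn10 (0.815), and for Cdh2 Lrrn3 (0.902) and Upb1 (0.892).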

How the data were processed

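The signal used is the gene counts in 1 column per library, which the authors deposited after scaling them with DESeq2. In all 24 columns the values were whole multiples of 1 step (tolerance 0.001 reads), taken as 1 read. Male smoke insert 5, whose step of 0.989 is close to 1, was left out of edgeR, which ran on 23 libraries. Per the submitters' processing notes the tools were Trimmomatic 0.38.0, FastQC 0.11.9, DESeq2 and HTSeq, on the builds GRCm38 and mm10. For the aligner and for strand the entry is: not given in the sources used here. The 3 tables the authors deposited hold log2 fold changes, a Wald score and p-values with adjusted p-values, with the sign turned here so that positive is higher in smoke or in female cells. Other columns deposited by the authors are gene positions on mm10, used for exon lengths.

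Genes with a mean of at least 10 (13549 of 25239) were fitted as log2(count + 1) in limma 3.58.1 (R 4.3.3), with 1 term per group, eBayes with trend, two-sided contrasts and Benjamini-Hochberg adjustment over all genes, called under 0.05. Fold changes are on that scale, and those of scarce genes depend on the pseudocount and the method. For Cdh2 in female smoke the value was -2.50, with -2.71 and -1.86 at pseudocounts of 0.5 and 5 and -2.12 by edgeR. The script was tested on simulated data with a dispersion of 0.05, and at a wider simulated spread it recovered fewer of the 2-fold changes. Among the 23 libraries, no pair within a group was a duplicate (lowest chi-square per degree of freedom 2.87). Male smoke insert 5 and pairs across groups were not checked. Members and lists were chosen with earlier results of these data known, as were the 2 libraries and the insert sets that were set apart. Named genes are the members, 16 fixed pathway genes and, per list and comparison, the 3 called genes of largest change whose higher group averages at least 50. The alternatives were TMM and quantile scaling, pseudocounts of 0.5 and 5, no filter, a mean of at least 50, both libraries left out, each library left out, a block for the insert number, a fit of only the groups compared, each insert set alone, edgeR 4.0.16 on reads, and the longest transcript for levels per kilobase. Values of 1 gene of the lists are not reported here.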

Additional observations from a re-analysis of the deposited data

Results flagged for a closer look

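In groups of 6, 3 of 36 sets of member values had a library far from the others, where chance gives about 1 in 20. Tgfbr1 in female air insert 1 stood at 822 normalised counts, with the nearest library at 1661. Vim in female smoke insert 4 stood at 292, with the nearest at 108. Fn1 in female smoke insert 4 stood at 3283, with the nearest at 1209. These are the 2 libraries whose counts follow transcript length, and their part in the values was not tested. Grhl1 was flagged because its smoke response differed between the sexes, by 0.87 on the log2 scale.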

How the results depend on the processing

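Members called with all libraries were 4 in female smoke, 1 in male smoke, 4 in the comparison of the sexes in air and 0 in the interaction, and pathway genes 36, 27, 45 and 1. Of all genes 34.8%, 22.0%, 39.0% and 1.03% were called. With only the groups compared in the fit, female smoke gave 1 member and 21 pathway genes and male smoke 4 and 52. The shares of all genes called were 21.2% and 46.1%. In inserts 1 to 3 alone female smoke gave 0 members and 6 pathway genes, where 4.82% of all genes were called. In inserts 4 to 6 alone female smoke gave 55 pathway genes, male smoke 12, and the interaction 2 members and 17 pathway genes. Of all genes 46.2%, 6.86% and 4.68% were called there. Without both libraries that follow transcript length, male smoke gave 2 members and 49 pathway genes and the interaction 4 and 13. The shares of all genes were 47.4% and 6.23%. Quantile scaling left male smoke with 0 members (Cdh2 adjusted p = 0.0530) and gave the interaction 1 member and 2 pathway genes. It called 21.2% and 1.36% of all genes. A mean of at least 50 left male smoke with 0 members because Cdh2 is not tested there. By edgeR male smoke had 2 members and the interaction 1 member and 4 pathway genes, where 22.8% and 1.16% of all genes were called. Except where construction shows it, the cause was not tested. Leaving out 1 library gave 3 to 5 members and 28 to 49 pathway genes in female smoke, 1 to 2 and 22 to 28 in male smoke, 4 in every case and 41 to 54 in air, and 0 to 2 and 1 to 7 for the interaction. No share over all genes was taken for these fits.

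With the insert number as a replicate block, 33.5%, 20.7%, 38.4% and 0.827% of all genes were called. Members called were 4, 1, 4 and 0 and pathway genes 33, 27, 46 and 1. The labels do not say what the numbers stand for, and pairing was not assumed because it was set to need a correlation of same-numbered deviations above 0.1 in every pair. This was met in 5 of 6 pairs in female cells, 2 of 6 in male cells and 2 of 6 in air, and at most 2 of 6 inserts correlated best with their own number. No call of a member changed with the block.

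Of 32 member fold changes, 23 kept their sign in every setting, and the others were not called with all libraries. Signs turned in female smoke for Tgfb2 (-0.079 without both libraries, -0.22 in inserts 4 to 6), Tgfb1 (0.14 in inserts 1 to 3) and Smad7 (-0.23 in inserts 4 to 6), and in male smoke for Tgfbr1 (-0.033 with quantile scaling, -0.067 in inserts 1 to 3, -0.017 by edgeR). In air they turned for Smad7 (0.054 without both libraries, 0.39 in inserts 4 to 6 with adjusted p = 0.0209, 0.072 by edgeR), Tgfbr1 (-0.12 in inserts 1 to 3) and Cdh2 (0.000597 in inserts 4 to 6, 0.023 by edgeR), and for the interaction in Tgfb1 (0.059 in inserts 1 to 3) and Tgfb2 (-0.034 in inserts 4 to 6). Leaving out 1 library moved Tgfb1 from -0.16 to 0.052 and Tgfb2 from -0.0080 to 0.43 in female smoke, Tgfbr1 from -0.039 to 0.12 in male smoke, and in air Smad7 from -0.19 to 0.071, Tgfbr1 from -0.013 to 0.25 and Cdh2 from -0.14 to 0.097. The interaction needs all 4 groups, so only the groups compared was not run for it. Depth limits Cdh2 and Zeb1 most.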
